A study of Mus musculus with 6 samples.

Results

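BAHD1 silences genes as part of a chromatin repressor complex, and the genes described here encode its partners: the histone deacetylases Hdac1 and Hdac2, the scaffolds Mier1, Mier2 and Mier3, the chromodomain protein Cdyl, the histone methyltransferase Setdb1, the corepressor Trim28, the methyl-DNA binding protein Mbd1 and the heterochromatin protein Cbx5. They were taken by gene name from the adult brain count table, which lists 53801 genes, and all 10 were among the 23975 genes that were expressed enough to be tested. RNA-seq was performed on 1 hemisphere from each of 3 Bahd1-WT (Bahd1+/+) and 3 Bahd1-KO (Bahd1-/-) mice. All were C57BL/6 adults about 70 weeks old, no agent is named in the labels, and the study used males. Both alleles of Bahd1 were inactivated in every cell type of the KO mice, and the study describes many deaths around birth in this line, so the adults sampled were survivors. Each hemisphere contained all brain cell types, so fewer cells of a type and less RNA per cell cannot be told apart.

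Heterochromatin is built in steps by enzymes, scaffolds and readers. HDAC1 and HDAC2 remove acetyl groups from histones and reach their targets through scaffolds, among them the MIER proteins, which carry ELM2 and SANT domains. TRIM28, also called KAP1, brings SETDB1 to chromatin to trimethylate histone H3 at lysine 9, HP1 alpha (the product of Cbx5) and CDYL bind the methylated histones, and MBD1 binds methylated DNA. Most of these proteins are made in nearly all cells, and in brain they take part in silencing of repeats and in neuronal gene regulation. Because BAHD1 acts with these proteins, the question for the comparison was whether their transcripts differed in the hemispheres that lacked it.

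The partner genes differ in the base composition of their transcripts, which ranged from 39.1% G and C in Mier1 to 61.0% in Mier2, and this property is shown first because it ordered the differences given further on. The MIER scaffolds are paralogs that share a conserved stretch of 40 codons, in which all 3 proteins carry the same residue at 30 positions but use different codons for 21 of those. The stretch is printed here 5′ to 3′ from the sense strand of the GENCODE M21 transcripts (GRCm38), with every G or C at the last base of a codon in capitals. Mier1 lies on chr4:103114390-103165754 on the plus strand, Mier2 on chr10:79540245-79555199 on the minus strand and Mier3 on chr13:111680979-111718596 on the plus strand. The exonic coding stretch spans residues 348 to 387 of Mier1, 317 to 356 of Mier2 and 299 to 338 of Mier3.
Mier1: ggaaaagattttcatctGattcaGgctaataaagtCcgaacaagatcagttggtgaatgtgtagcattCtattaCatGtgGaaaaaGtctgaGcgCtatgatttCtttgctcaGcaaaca
Mier2: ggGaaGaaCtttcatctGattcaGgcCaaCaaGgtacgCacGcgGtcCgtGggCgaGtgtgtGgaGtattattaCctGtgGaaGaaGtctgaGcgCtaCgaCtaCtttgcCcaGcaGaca
Mier3: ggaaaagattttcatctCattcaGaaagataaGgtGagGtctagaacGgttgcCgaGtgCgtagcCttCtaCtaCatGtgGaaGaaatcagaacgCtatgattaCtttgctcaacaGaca
G or C closed 12 of the 40 codons in Mier1, 30 in Mier2 and 19 in Mier3. Over whole coding sequences the share of codons closed by G or C was 34.5% in Mier1, 47.6% in Mier3 and 68.1% in Mier2, although the encoded proteins were 38.9% identical between Mier1 and Mier2 and 46.0% between Mier1 and Mier3 over aligned residues.

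The deacetylase paralogs show the same contrast within a stretch that encodes identical protein. Hdac1 lies on chr4:129516104-129542713 on the minus strand and Hdac2 on chr10:36974544-37001889 on the plus strand (GRCm38), and residues 20 to 59 of Hdac1 correspond to residues 21 to 60 of Hdac2. All 40 residues are the same, but 20 of the codons differ, and the capitals again mark G or C at the last base of a codon.
Hdac1: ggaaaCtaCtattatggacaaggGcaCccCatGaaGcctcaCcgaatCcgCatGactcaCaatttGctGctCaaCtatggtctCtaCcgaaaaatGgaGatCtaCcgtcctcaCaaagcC
Hdac2: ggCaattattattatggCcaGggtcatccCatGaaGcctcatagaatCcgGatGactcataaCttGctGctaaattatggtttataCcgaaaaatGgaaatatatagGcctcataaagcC
G or C closed 24 of these codons in Hdac1 and 16 in Hdac2. Their proteins were 86.3% identical over 482 aligned residues. Whole transcripts had 49.95% G and C in Hdac1 and 41.9% in Hdac2.

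Libraries held 42297150 to 93557948 counts, and the partner genes together took 0.0555% to 0.0745% of them. The least counted partner had 144 to 928 counts in a library, far above the floor of 3 counts, which equals 0.0315 to 0.0690 CPM (counts scaled to a common library size, here by the trimmed mean of M values, TMM). Bahd1 itself had 1383, 844 and 1099 counts in Bahd1-WT replicates 1 to 3 and 0, 14 and 1 in Bahd1-KO replicates 1 to 3 (log2 fold change -7.67, SE 0.64, edgeR adjusted p = 0.0135). Libraries also differed in base composition. The median log2 CPM of the tenth of genes richest in G and C minus that of the tenth poorest was -2.10, -2.70 and -2.37 in Bahd1-WT replicates 1 to 3 and -1.62, 0.59 and -0.74 in Bahd1-KO replicates 1 to 3. Bahd1-KO replicates 2 and 3 therefore stood apart from the WT libraries, and Bahd1-KO replicate 1 lay nearest to them. Fold changes of the partner genes and their ratios are thus also given with a GC and length offset, a correction fitted in every library for how counts depended on the base composition and length of transcripts. Summed markers of neurons ranged from 6308 to 7316 CPM in WT and 5586 to 6975 CPM in KO, and those of oligodendrocytes from 4887 to 5694 and 5104 to 7898 CPM. Astrocyte markers summed to 2010 to 2241 CPM in WT and 1700 to 1969 CPM in KO, microglial markers to 120 to 163 and 139 to 180 CPM, and endothelial markers to 187 to 200 and 180 to 210 CPM. The neuron, astrocyte, microglial and endothelial sums joined unlike genes. Groups did not overlap for Slc17a7, Aldh1l1, Tmem119 and Cldn5, higher in KO (log2 0.64, 1.03, 1.37 and 2.56). Nor did they for Syt1, Aqp4, Slc1a3, P2ry12 and Slco1a4, lower in KO (-0.37, -0.47, -0.36, -0.54 and -0.44). Over all genes, 39.8% did not overlap. With the offset only Aldh1l1 and Cldn5 of these stayed apart (0.40 and 0.86), while Rbfox3, Snap25 and Gja1 came apart (-0.46, 0.42 and 0.23). Markers of tissues that can come along in dissection also varied, with choroid plexus at 262 to 357 CPM in WT and 441 to 1062 CPM in KO, red cells at 10.8 to 15.9 and 15.1 to 92.6 CPM, and pituitary at 0.205 to 17.6 and 0.184 to 41.3 CPM with Gh, Prl and Lhb at 0 in at least 1 library. Lung epithelium markers summed to 2.20 to 103 CPM in WT and 0.437 to 1.397 CPM in KO, with Sftpa1, Sftpb and Sftpd at 0 in at least 1 library, and markers of dividing cells to 3.82 to 11.9 and 2.24 to 3.32 CPM. The lung markers were highest in Bahd1-WT replicate 1, and without that library edgeR called 0 of all genes tested, so calls could not be compared with and without it. Of the 50 markers, edgeR called 0, where it called 0.00834% of all genes. An unadjusted p under 0.05 was reached by 15 that were higher and 10 that were lower in KO, beside 19.9% and 12% of all genes. DESeq2 called 17 and gave no adjusted p for 3, and it called 21.3% of the genes it tested. The choroid plexus sum was mostly Ttr (269 ± 49.8 CPM in WT and 658 ± 321 CPM in KO, SD, n = 3), while the log2 fold change was -0.40 for Kl, whose groups did not overlap, and -0.39, 0.37 and 0.66 for Kcnj13, Aqp1 and Folr1, whose groups did. The oligodendrocyte sum also joined unlike genes. Mbp averaged 1310 ± 105 CPM in WT and 2948 ± 1388 CPM in KO (log2 1.17, 0.997 with the offset) and Mag 50.4 ± 6.44 and 159 ± 82.4 CPM (1.66, 0.49 with the offset), and neither overlapped. Mog and Mobp overlapped, at -0.08 and -0.21 (-0.17 and -0.66 with the offset). DESeq2 with the offset called Mbp, Mag and Mobp, where it called 12.4% of the genes it tested. The part of these markers in the results was not tested.

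None of the 10 partner genes passed an edgeR adjusted p of 0.05 between genotypes, where 0.00834% of all genes tested did. At an unadjusted p under 0.05, Mier2 and Trim28 were higher in KO, where 19.9% of all genes were, and Mier1, Mier3 and Cbx5 were lower, where 12% of all genes were. The KO and WT levels did not overlap for 6 of the 10, against 39.8% of all genes, with Hdac1, Mier2 and Trim28 higher and Mier1, Mier3 and Cbx5 lower. The median log2 fold change of the 10 was -0.08, beside -0.06 over all genes tested, and the median size was 0.49 beside 0.48. The typical partner gene was thus about as far from 0 as the typical gene tested, low counts included. Among genes with CPM above 1 in 3 samples, the median size over all genes was 0.41, beside 0.49 for the 10. Without Bahd1-KO replicate 1, edgeR called 6 of the 10 (Hdac2, Mier1, Mier2, Mier3, Trim28 and Cbx5), where it called 29.7% of all genes.

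**Figure D1:**
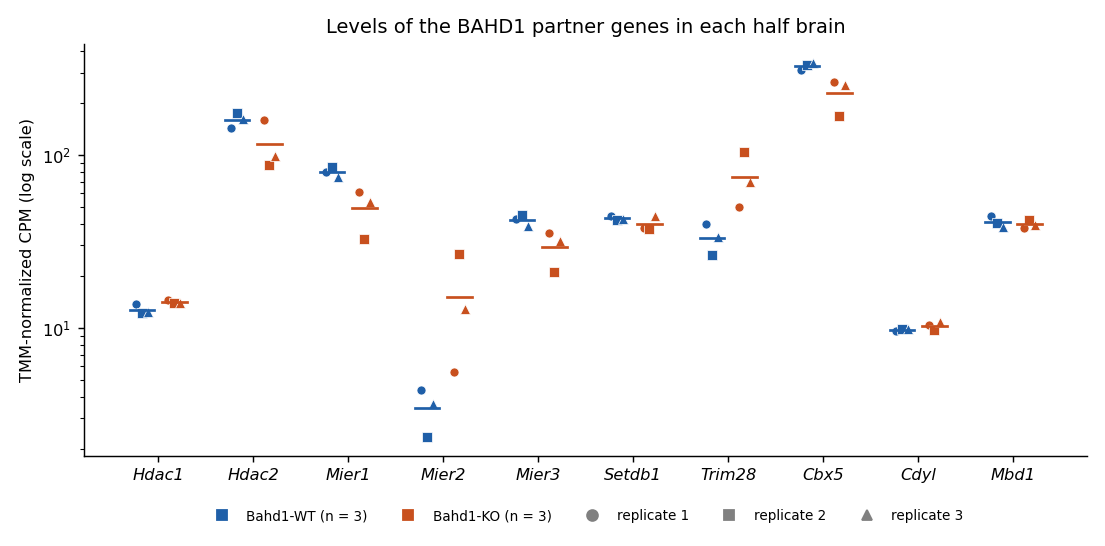
TMM-normalized CPM on a log axis for each partner gene, with a point per hemisphere (3 Bahd1-WT, 3 Bahd1-KO), a shape per replicate number and a line at the group mean. Mier2 and Trim28 sit higher in all KO hemispheres and Mier1, Mier3 and Cbx5 lower, with Bahd1-KO replicate 2 farthest from WT for each of the 5, while Setdb1, Cdyl and Mbd1 overlap between genotypes.

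The deacetylases are the catalytic core of the complex, and neither passed the test. Hdac1 was measured at 13.8, 12.1 and 12.4 CPM in the WT hemispheres and at 14.5, 13.99 and 13.9 CPM in the KO hemispheres. All KO values lay above the WT values, but the lowest KO value exceeded the highest WT value by less than the WT values differed among themselves. The log2 fold change of Hdac1 was 0.14 (SE 0.17, 95% interval -0.24 to 0.53, edgeR adjusted p = 0.575) and 0.09 with the offset (-0.17 to 0.35). Hdac2 was the more abundant deacetylase, at 143, 176 and 162 CPM in WT and 159, 88.1 and 99.3 CPM in KO. Bahd1-KO replicate 1 fell among the WT values and the other KO hemispheres lay below them. Its log2 fold change was -0.47 (SE 0.23, interval -0.998 to 0.06, edgeR adjusted p = 0.193). Leaving out Bahd1-KO replicate 1 gave -0.75 (edgeR adjusted p = 0.0128), and the offset gave -0.05 (interval -0.30 to 0.19, edgeR adjusted p = 0.823).

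The MIER scaffolds recruit the deacetylases, and by value they lay on opposite sides of WT. Mier2 had the widest difference of the partner genes, with 4.39, 2.33 and 3.64 CPM in WT and 5.54, 26.8 and 12.9 CPM in KO. All KO hemispheres were above all WT hemispheres, and the KO hemispheres themselves differed from 5.54 to 26.8 CPM. The fold was 4.36 (log2 2.12, SE 0.52, interval 0.94 to 3.30), which did not pass the edgeR test (adjusted p = 0.0634). Without Bahd1-KO replicate 2 the log2 fold change of Mier2 was 1.42 (edgeR adjusted p = 0.0618). DESeq2 without a prior did call it (log2 2.15, adjusted p = 0.000262), as it called Trim28 and 21.3% of the genes it tested. With total counts in place of TMM, edgeR called Mier2 and Trim28 (both at an adjusted p of 0.0472) and 9.40% of all genes.

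After the offset, Mier2 stood at 5.76, 4.54 and 5.99 CPM in WT and 5.87, 8.97 and 8.61 CPM in KO. Bahd1-KO replicate 1 then lay between WT values, while the other KO hemispheres stayed above them. The fold became 1.44 (log2 0.53, interval 0.11 to 0.95, edgeR adjusted p = 0.150). Mier2 was the only partner gene at an unadjusted p under 0.05 with the offset, where 21.4% of all genes were, and no partner gene passed the adjusted threshold, which 0.0167% of all genes passed. DESeq2 with the offset, an alternative added after the data were seen, also called 0 of the 10, where it called 12.4% of the genes it tested.

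Mier1, the most studied of the scaffolds, was measured at 79.7, 85.4 and 74.3 CPM in WT and at 61.3, 32.8 and 53.5 CPM in KO. All KO hemispheres were below all WT hemispheres, with Bahd1-KO replicate 2 the lowest. The log2 fold change was -0.70 (SE 0.23, interval -1.22 to -0.17, edgeR adjusted p = 0.0891), and with the offset it was -0.12 (interval -0.33 to 0.09, edgeR adjusted p = 0.4997). Mier3, the remaining paralog, followed the same order at a lower level, with 42.5, 44.7 and 38.9 CPM in WT and 35.3, 20.9 and 31.8 CPM in KO. The groups again did not overlap. Its log2 fold change was -0.52 (SE 0.21, interval -1.01 to -0.03, edgeR adjusted p = 0.139) and -0.05 with the offset (interval -0.27 to 0.18). Without Bahd1-KO replicate 2 it was -0.33. Mier1, Mier2 and Trim28 were under an edgeR adjusted p of 0.1, which 19.5% of all genes were. Exons of Mier1 overlap those of Wdr78 on the opposite strand by 130 bases, a small part of the 12513 exonic bases of Mier1.

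SETDB1 and TRIM28 act as a pair in methylation of histone H3 at lysine 9, and their transcripts are therefore given side by side. Setdb1 (chr3:95323525-95357202, minus strand) stood at 44.1, 41.9 and 42.8 CPM in WT and 37.9, 37.1 and 44.5 CPM in KO. The groups overlapped through Bahd1-KO replicate 3, the highest of all 6. Its log2 fold change was -0.11 (SE 0.15, interval -0.46 to 0.24, edgeR adjusted p = 0.645) and -0.03 with the offset (interval -0.24 to 0.18). Its exons overlap those of Cers2 by 75 bases and Gm37500 by 249 bases, both on the opposite strand. Trim28 (chr7:12999114-13031035, plus strand) was measured at 39.7, 26.3 and 33.3 CPM in WT and at 49.97, 104 and 69.9 CPM in KO. Every KO hemisphere exceeded every WT hemisphere, and Bahd1-KO replicate 1 was the nearest to WT. The fold was 2.26 (log2 1.18, SE 0.28, interval 0.54 to 1.81, edgeR adjusted p = 0.0634), and DESeq2 gave an adjusted p of 0.00214.

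With the offset the direction of Trim28 turned, to a log2 fold change of -0.11 (interval -0.38 to 0.15, edgeR adjusted p = 0.631). Its corrected levels were 50.8, 48.4 and 52.0 CPM in WT and 52.1, 39.3 and 48.6 CPM in KO. The groups then overlapped, and Bahd1-KO replicate 2, which had the highest level before the correction, had the lowest after it.

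Cbx5, which encodes HP1 alpha, a reader of methylated lysine 9, was the most counted partner gene. It lies on chr15:103191544-103239816 on the minus strand and was measured at 311, 333 and 342 CPM in WT and 264, 169 and 256 CPM in KO. All KO hemispheres were below WT, and Bahd1-KO replicate 2 was well below the rest. The log2 fold change was -0.52 (SE 0.19, interval -0.96 to -0.08, edgeR adjusted p = 0.113) and -0.10 with the offset (interval -0.31 to 0.10). Leaving out Bahd1-KO replicate 2 gave -0.35 for Cbx5. Cdyl, a chromodomain reader that also acts as a corepressor, lies on chr13:35659833-35874063 on the plus strand. It was measured at 9.57, 9.85 and 9.83 CPM in WT and 10.4, 9.74 and 10.8 CPM in KO, and the groups overlapped. Its log2 fold change was 0.08 (SE 0.18, interval -0.32 to 0.48, edgeR adjusted p = 0.774), and its sign turned with upper-quartile scaling and with the offset (-0.060 and -0.058). Mbd1, which couples DNA methylation to SETDB1, stood at 44.2, 40.5 and 38.4 CPM in WT and 37.9, 42.3 and 39.3 CPM in KO. Its groups overlapped, with a log2 fold change of -0.04 (SE 0.15, interval -0.39 to 0.30, edgeR adjusted p = 0.860), which was 0.032 with total counts and -0.11 with the offset. The intervals of Hdac1, Setdb1, Cdyl and Mbd1 reached from -0.46 to 0.53 at their outermost, so they do not show that these levels were alike.

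**Figure D2:**
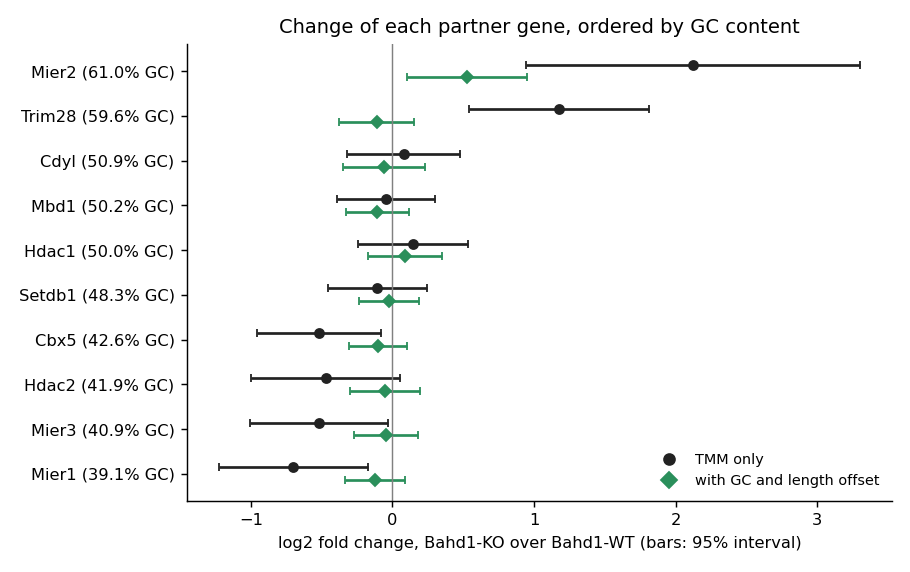
Log2 fold change of Bahd1-KO over Bahd1-WT (x axis) with 95% intervals for the partner genes, ordered from the highest GC content (top) to the lowest, from TMM-normalized counts (black circles) and with the GC and length offset (green diamonds). The black points run from 2.12 for Mier2 to -0.70 for Mier1 along this order, and with the offset all but Mier2 lie between -0.12 and 0.09, with Trim28 and Cdyl changing sign.

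The differences followed the base composition of the transcripts. Across the 10 partner genes the log2 fold change correlated with the GC content of the longest transcript at Pearson's r = 0.94 and Spearman's rho = 0.95, and across the 19 other heterochromatin and HDAC genes described further on at r = 0.77 and rho = 0.83. These are descriptions across genes that share the same 6 libraries, not independent replicates. In the transcript with the longest coding sequence, which is not the longest transcript for every gene, r was 0.85 for the coding sequence, 0.79 for the last base of codons and 0.87 for the untranslated rest. With the offset, 9 of the 10 log2 fold changes were nearer to 0, Mbd1 being the exception, and the median size was 0.09 beside 0.27 over all genes tested. The latter includes genes counted far less than the partner genes, so these sizes are not matched for level. The offset was fitted to these same libraries and takes out any trend along GC content, so such shrinking is built in. A genotype difference that follows GC content would be taken out with it.

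**Figure D3:**
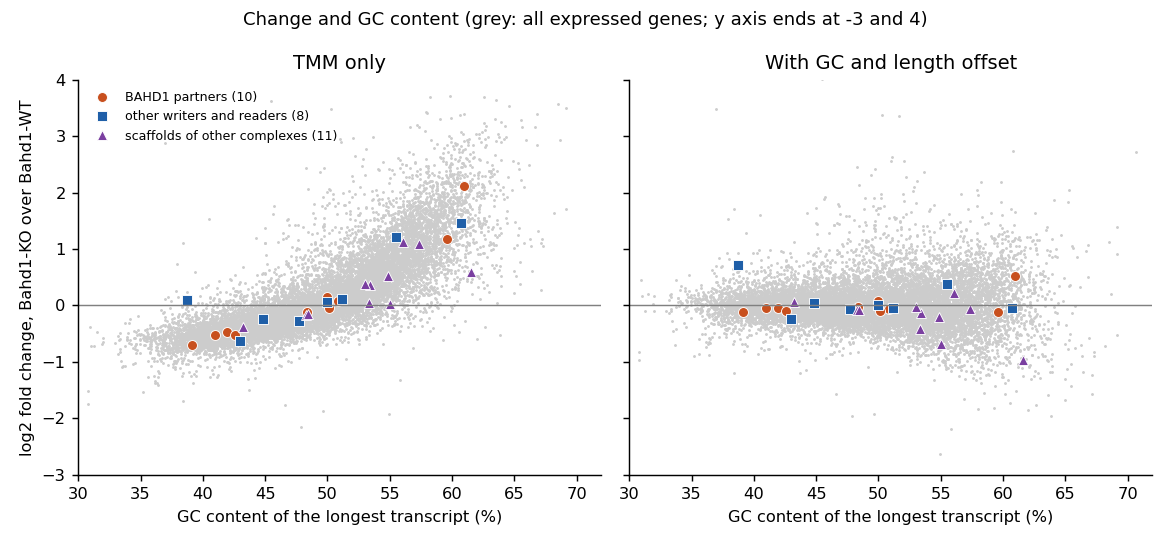
Log2 fold change of Bahd1-KO over Bahd1-WT (y axis, shown from -3 to 4) against the GC content of the longest transcript in percent (x axis), with TMM alone (left) and with the GC and length offset (right), for expressed genes (grey), the 10 partner genes (red circles), 8 other writers and readers (blue squares) and 11 scaffolds of other complexes (purple triangles). On the left the partner genes lie within the rising band of grey points, and on the right the band is flat around 0, because the offset was fitted to take out that trend.

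GC content near the start of transcription did not order the genes in the same way. RefSeq (GRCm38.p6) gave promoter windows of 300 bases for 8 of the 10, all but Hdac1 and Mbd1, and over these 8 the GC content of the window correlated with the log2 fold change at r = 0.15 and rho = 0.12 with the window nearest the 5′ end of each gene, and at r = -0.29 and rho = -0.40 with the window of highest GC content where a gene has several. Mier2 and Mier3 are shown because they lay on opposite sides of 0 while both had windows rich in CpG, the sites of DNA methylation. Mier2 had 27 CpG sites and 65.3% G and C in its window, chr10:79555079-79555378 on the minus strand, and Mier3 had 41 and 78.7% in its window, chr13:111685928-111686227 on the plus strand. The median over all 32851 windows was 7 CpG sites and 52.7%. Both windows are written 5′ to 3′ on the gene's strand with CpG in capitals.
Mier2: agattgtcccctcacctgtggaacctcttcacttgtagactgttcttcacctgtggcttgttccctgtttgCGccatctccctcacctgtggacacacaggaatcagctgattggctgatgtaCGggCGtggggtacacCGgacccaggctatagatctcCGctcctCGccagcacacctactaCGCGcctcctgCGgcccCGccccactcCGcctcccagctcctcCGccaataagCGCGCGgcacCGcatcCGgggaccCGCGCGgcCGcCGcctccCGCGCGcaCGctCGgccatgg
Mier3: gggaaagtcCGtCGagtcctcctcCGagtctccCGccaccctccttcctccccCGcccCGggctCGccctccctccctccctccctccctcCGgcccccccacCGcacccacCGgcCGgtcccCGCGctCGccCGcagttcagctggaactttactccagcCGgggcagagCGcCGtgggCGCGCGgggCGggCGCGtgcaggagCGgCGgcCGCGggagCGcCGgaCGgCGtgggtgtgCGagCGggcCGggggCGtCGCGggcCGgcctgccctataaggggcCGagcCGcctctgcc
The GC box GGGCGG, searched on both strands, was found in the windows of 7 of the 8 genes, all but Cdyl, and in 35.7% of all windows. CCAAT was found for Mier1, Mier2, Setdb1 and Cbx5 and in 37.4% of all windows, and TATAAA for Mier1 and in 13.6%. Mier1, Cbx5 and Cdyl have more than 1 window, and these counts use the one nearest the 5′ end of the gene.

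Per kilobase of exon and without the offset, the partner genes spanned a wide range of levels in WT brain. Cbx5 and Hdac2 came first, at 36.5 ± 1.75 and 35.8 ± 3.67 CPM per kilobase (SD, n = 3), and these did not differ beyond their spread. Trim28 at 7.97 ± 1.62, Mier3 at 6.90 ± 0.48, Mier1 at 6.38 ± 0.44, Setdb1 at 6.27 ± 0.16 and Mbd1 at 6.12 ± 0.44 CPM per kilobase followed, each overlapping its neighbour. Hdac1 at 3.70 ± 0.27, Cdyl at 2.22 ± 0.035 and Mier2 at 0.768 ± 0.23 CPM per kilobase were each separate from the gene before. In KO, Hdac2 at 25.8 ± 8.55 and Cbx5 at 25.5 ± 5.83 CPM per kilobase came first, and Trim28 stood at 18.0 ± 6.63. Mier2, at 1.23, 5.95 and 2.86 CPM per kilobase, and Cdyl, at 2.37, 2.22 and 2.45, overlapped in KO. Mier1 went from 6.38 to 3.93 ± 1.18 CPM per kilobase and Mier3 from 6.90 to 4.82 ± 1.23.

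Ratios of counts within a library do not depend on its depth and show the balance between related genes. The ratio of Mier1 to Mier2 was 18.2, 36.6 and 20.4 in WT and 11.1, 1.23 and 4.16 in KO. Mier2 was thus counted far less than Mier1 in WT and nearly as often in Bahd1-KO replicate 2. Mier1 has the longer exons, and per kilobase the mean WT ratio was 8.57. In Bahd1-KO replicate 2, Mier2 stood at 5.95 and Mier1 at 2.62 CPM per kilobase. The difference was -2.64 on the log2 scale, with an exact permutation test p = 0.1, two-sided, the smallest that 3 against 3 samples can give. It was -1.81 without Bahd1-KO replicate 2 and -3.40 without Bahd1-KO replicate 1. Mier1 to Mier3, genes of like GC content, stood at 1.88, 1.91 and 1.91 in WT and 1.73, 1.57 and 1.68 in KO (log2 difference -0.19, exact permutation p = 0.1). Mier2 to Mier3 stood at 0.103, 0.0521 and 0.0936 in WT and 0.157, 1.28 and 0.405 in KO (2.44, exact permutation p = 0.1), with a difference of 1.66 without Bahd1-KO replicate 2 and 3.17 without Bahd1-KO replicate 1. With the offset these differences of the MIER genes were -0.63, -0.08 and 0.56, and the groups overlapped in each.

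Setdb1 exceeded Trim28 in counts in all WT hemispheres, at ratios of 1.111, 1.60 and 1.28, and was below it in all KO hemispheres, at 0.759, 0.355 and 0.637 (log2 difference -1.24, exact permutation p = 0.1). With the offset the difference was 0.09, with the sign turned. Hdac1 to Hdac2 was 0.0966, 0.0689 and 0.0764 in WT and 0.0909, 0.159 and 0.140 in KO, and the groups overlapped (0.66, exact permutation p = 0.2). With the offset the difference was 0.15. Hdac1 made up 7.45% ± 1.22 of the counts of the pair in WT and 11.4% ± 2.77 in KO (SD, n = 3), both without the offset. Cdyl to its paralog Cdyl2 was 6.00, 10.3 and 6.93 in WT and 5.79, 2.40 and 3.22 in KO (-1.09, exact permutation p = 0.1), and with the offset the difference was -0.43 and the groups overlapped.

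The ratio of Cbx5 to Cbx3 was the one of the 8 whose groups did not overlap either with or without the offset. Cbx5 to Cbx3, which encodes HP1 gamma, was 22.8, 25.8 and 23.7 in WT and 17.1, 12.5 and 16.9 in KO (log2 difference -0.65, exact permutation p = 0.1). With the offset the difference was -0.80 and the groups still did not overlap. Cbx5 to Cbx1, which encodes HP1 beta, was 6.83, 6.36 and 6.22 in WT and 4.96, 4.51 and 6.47 in KO, and the groups overlapped (-0.30, exact permutation p = 0.3), with a difference of -0.15 under the offset. Of the 8 ratios, 6 did not overlap between genotypes from the counts and 1 did not with the offset, and after Benjamini-Hochberg adjustment none of the 8 could pass in a design whose smallest p is 0.1. The ratios are not separate results, since each MIER ratio follows from the others and Cbx5 enters more than 1. The share of other gene pairs whose ratios do not overlap was not computed.

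**Figure D4:**
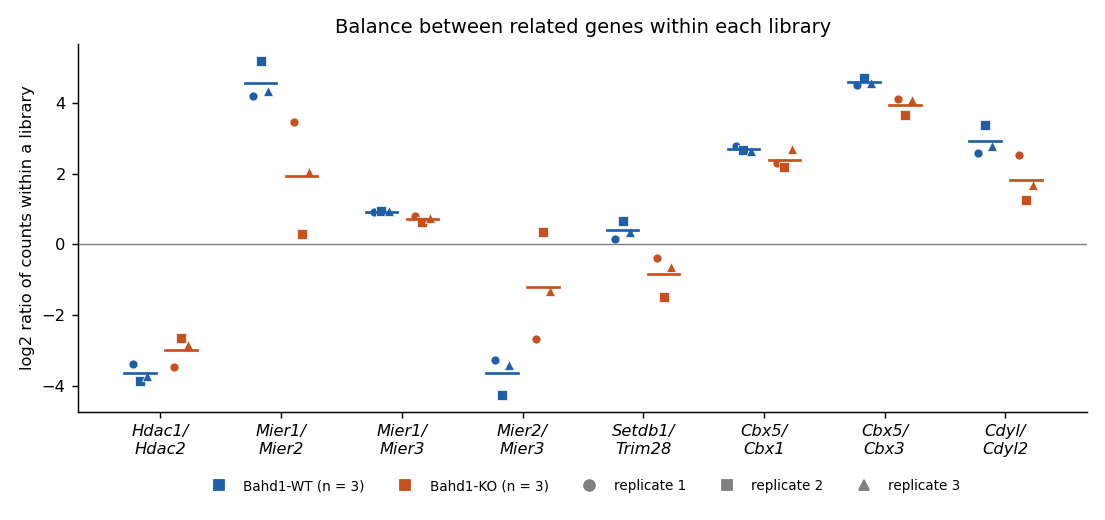
Log2 ratio of counts of related genes within each library (y axis), with a point per hemisphere, a shape per replicate number and a line at the mean of each genotype (3 Bahd1-WT, 3 Bahd1-KO). The means of the genotypes lie farthest apart for Mier1 to Mier2 (-2.64) and Mier2 to Mier3 (2.44) and nearest for Mier1 to Mier3 (-0.19).

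Genes of other heterochromatin writers and readers had log2 fold changes in the same range. The study names products of some of these as BAHD1 partners too, among them G9a (encoded by Ehmt2) and SUV39H1, so they are not a set of non-partners. None of the 8 passed the edgeR test at 0.05. DESeq2 called 2 (Ehmt2 and Cdyl2), where it called 21.3% of the genes it tested. At an unadjusted p under 0.05, 2 were higher and 1 lower in KO, beside 19.9% and 12% of all genes. Their median log2 fold change was 0.08. Ehmt2, which encodes the lysine 9 methyltransferase G9a, averaged 29.6 ± 7.7 CPM in WT and 81.4 ± 48.6 CPM in KO (log2 1.46, SE 0.40, edgeR adjusted p = 0.0659), 0.88 without Bahd1-KO replicate 2 and -0.04 with the offset. Cdyl2 averaged 1.32 ± 0.33 and 3.07 ± 1.16 CPM (log2 1.21, SE 0.34, edgeR adjusted p = 0.0676), and 0.39 with the offset. Suv39h2, a lysine 9 methyltransferase of pericentric heterochromatin, averaged 8.77 CPM in WT and 5.66 CPM in KO (log2 -0.63, edgeR adjusted p = 0.135), and -0.25 with the offset. Ehmt1, Suv39h1, Cbx1, Cbx3 and Atf7ip had log2 fold changes of 0.11, 0.06, -0.23, 0.10 and -0.28, and with the offset Ehmt1 and Cbx1 turned sign, to -0.05 and 0.05, and Atf7ip stood at -0.06. Cbx3, with a transcript poor in G and C, was farthest from 0 of the 8 after the correction, at 0.71 with the offset (edgeR adjusted p = 0.0812), which DESeq2 with the offset called (adjusted p = 0.0021).

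Scaffolds of the other complexes that hold HDAC1 and HDAC2 were examined as the nearest counterpart of the MIER genes. None of the 11 passed the edgeR test at 0.05. DESeq2 called 2 (Sin3b and Mta1), where it called 21.3% of the genes it tested. At an unadjusted p under 0.05, 2 were higher and 0 lower in KO, beside 19.9% and 12% of all genes. The median log2 fold change was 0.37 before and -0.09 with the offset. Sin3b, a scaffold of the SIN3 complex, averaged 20.9 CPM in WT and 45.6 CPM in KO (log2 1.13, SE 0.32, edgeR adjusted p = 0.0676), 0.72 without Bahd1-KO replicate 2 and 0.22 with the offset. Mta1, a NuRD subunit, averaged 19.3 and 41.0 CPM (log2 1.08, SE 0.34, edgeR adjusted p = 0.0815), 0.57 without Bahd1-KO replicate 2 and -0.07 with the offset. The other 9 ranged from -0.39 for Rcor3 to 0.59 for Rcor2. With the offset, 3 of the 11 were at an unadjusted p under 0.05, beside 21.4% of all genes, and all of these were lower in KO. None of them had an edgeR adjusted p under 0.05. DESeq2 with the offset called all 3, where it called 12.4% of the genes it tested. Rcor2, a CoREST subunit, turned to -0.96 (edgeR adjusted p = 0.0790, DESeq2 adjusted p = 7.6e-05). Elmsan1 went from 0.02 to -0.69 (edgeR adjusted p = 0.143, DESeq2 adjusted p = 0.0374) and Mta2 from 0.04 to -0.42 (edgeR adjusted p = 0.101, DESeq2 adjusted p = 0.0308), while Rcor3 turned to 0.07. Sin3a, the paralog of Sin3b, stood at -0.16 and at -0.08 with the offset. Mta3, a paralog of Mta1, stood at 0.37 and at -0.13 with the offset, so Mta1 was above its paralogs by value before the offset and all of the MTA genes were below 0 with it.

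The genes whose log2 CPM followed each partner gene most closely over the 6 hemispheres were mostly genes of like base composition. Trim28 (59.6% G and C) was followed by Adap1 (61.4%), Mier2 by Acap3 (59.5%), Hdac2 by Dcun1d5 (41.1%), Mier1 by Mbnl1 (39.7%), Mier3 by Ogn (36.3%) and Cbx5 by Ipp (44.8%), all at Pearson's r above 0.99. Setdb1 was followed by Zfp704 (r = 0.993), Cdyl by Kctd7 (0.986), Hdac1 by Cacng5 (0.985) and Mbd1 by Slc39a2 (0.942), each the highest among 13811 genes over 6 samples. Among the partner genes themselves the highest correlation was that of Mier1 with Mier3 (0.997) and the lowest that of Mier1 with Mier2 (-0.968), also over the 6 samples, where all genes share each library's depth and GC trend.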

How the data were processed

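RNA-seq counts of exonic reads per gene were obtained for 3 Bahd1-WT and 3 Bahd1-KO hemispheres. Per the submitters' processing notes the authors used cutadapt 1.11, STAR 2.5.0a and featureCounts 1.4.6-p3 on GRCm38, and DESeq2 1.20.0 in R 3.5.1. The supplementary methods also name Tophat2. The authors deposited whole counts, 1 column per mouse, without normalization.

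Genes with at least 10 counts over the 6 samples were tested with edgeR 4.0.16 (TMM, quasi-likelihood, genotype as the factor, Benjamini-Hochberg adjustment over all genes tested) in R 4.3.3, a gene being called at an adjusted p under 0.05. DESeq2 1.42.0 was an alternative, and others were total, upper-quartile and DESeq2 size factors, filters on low counts, each sample left out, a replicate block and the offset. The offset came from a natural spline on GC content (5 degrees of freedom) and log length (3) of GENCODE M21, fitted in each library to 13251 genes with a mean log2 CPM above 1. Ratios were compared by two-sided exact permutation tests. Codon stretches were the 40 codons with the most shared residues in an ungapped part of global alignments of the longest coding sequences. Scripts were tested on simulated data.

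Named genes were Bahd1, the 10 partners, 8 other writers and readers, 11 scaffolds and, for each partner, the gene of highest correlation. Genes whose exons overlap a partner's, and markers at 0 or behind a summed level, were named after their values were seen. Members and lists were chosen with earlier results of these data known. The samples of a genotype were separate mice. The floor of 3 counts reflects counting error alone.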

Additional observations from a re-analysis of the deposited data

How the results depend on the processing

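No partner gene was called by edgeR with TMM at an adjusted p under 0.05, and this count was 0 under most alternatives. It was 2 with total counts and with DESeq2 with or without a normal prior (Mier2 and Trim28 in each), 3 with no filter beyond 1 count (Mier1, Mier2 and Trim28) and 0 to 6 when 1 sample was left out, the 6 arising without Bahd1-KO replicate 1. Over all genes, calls went from 2 by edgeR to 4112 by DESeq2, 4107 with its prior, 2253 with total counts, 3611 with no filter beyond 1 count, 0 to 7111 with 1 sample left out (586 without Bahd1-KO replicate 2), 4 with the offset and 2157 by DESeq2 with the offset. The cause of these jumps was not tested. The call of Bahd1 was lost when any WT replicate or Bahd1-KO replicate 3 was left out, at edgeR adjusted p from 0.0545 to 0.124, while its log2 fold change stayed between -7.73 and -7.26 in those fits. Over all alternatives it ranged from -10.28 without Bahd1-KO replicate 2 to -4.39 with the DESeq2 normal prior.

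Trim28 reversed with the offset (-0.11), with the offset and the replicate block (-0.12) and with DESeq2 and the offset (-0.11), the last chosen after seeing the data. Cdyl reversed with upper-quartile factors (-0.060), with the offset (-0.058), with the offset and the replicate block (-0.061) and with DESeq2 and the offset (-0.060). Mbd1 reversed with total counts (0.032), without Bahd1-WT replicate 1 (0.013) and without Bahd1-KO replicate 1 (0.022), in a leave-one-out range of -0.092 to 0.022. Over all partner genes and alternatives, 165 log2 fold changes kept their direction and side of the threshold, 15 kept direction and passed it, and 10 reversed. Upper-quartile factors moved the median log2 fold change of all genes from -0.06 to -0.20. Of the 8 ratios, 6 had groups that did not overlap, 6 to 7 with 1 sample left out and 1 with the offset. No ratio changed direction without a KO replicate, and without Bahd1-KO replicate 2 Cbx5 to Cbx1 was -0.19 in place of -0.30.

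Replicate numbers name different animals, and the deviations of same-numbered samples correlated at -0.629, -0.641 and -0.142 over 13810 genes, so they do not pair the samples. With the replicate block 0 partner genes were called and 7 of all genes, with Mier2 at 1.88 and Trim28 at 1.13 (edgeR adjusted p = 0.124 for both). With 3 samples a genotype, and depths that differ up to 93557948 against 42297150 counts, the fold change of Mier2 had the widest error of the partner genes (SE 0.52).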
